A study of Mus musculus with 9 samples.

Results

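The organic anion and organic cation transporters of the kidney carry drugs, toxins and waste metabolites from blood to urine and recover metabolites such as urate and carnitine from the filtrate. The 9 genes described here were chosen by symbol from the 13081 genes of the table, and all 9 were listed there. They encode the organic anion transporters OAT1 (Slc22a6) and OAT3 (Slc22a8), the urate exchanger URAT1 (Slc22a12), the organic cation transporter OCT2 (Slc22a2), the proton-coupled cation exporter MATE1 (Slc47a1), the carnitine and zwitterion transporters OCTN1 (Slc22a4) and OCTN2 (Slc22a5), and a pair of organic anion transporting polypeptides (Slco1a1 and Slco1a6).

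Kidneys were taken from wild-type mice at 3 months of age (young, n = 4) and at 16 months of age (old, n = 5), and whole-kidney RNA was sequenced from the 3′ ends of transcripts. Age was the only labelled difference, no treatment was named, and the labels give neither strain nor sex. All library titles with the prefix YAA were young and all with the prefix YRN were old, so whatever else follows the prefix and age cannot be told apart. The p-values measure the spread between these libraries.

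Most of these proteins sit in proximal tubule cells, which take up solutes through the basolateral membrane facing the blood and pass them on through the apical brush border. OAT1 and OAT3 exchange organic anions for dicarboxylates that sodium-coupled carriers return to the cell, OCT2 lets organic cations in along the membrane potential, and MATE1 and the apical efflux pumps complete secretion. In the mouse kidney the levels of several of them differ between the sexes and respond to androgens.

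The libraries held 5093029 to 6355095 reads (young) and 4486406 to 5794960 reads (old) over the listed genes. Genes of the mitochondrial genome took 27.0% to 29.7% of the reads in young libraries and 35.8% to 38.1% in old libraries. The summed level of 16 proximal tubule markers, such as Lrp2, Cubn and Slc34a1, overlapped between the ages (81390 to 88355 normalised counts in young, 78361 to 100094 in old). At an adjusted p-value below 0.05 (limma), 6 of these markers were higher and 8 lower in old kidneys, beside 29.2% higher and 30.5% lower over all genes tested. None of the 16 was at 0 in every library.

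All 9 transporter genes passed the filter on low values. Here a call is an adjusted p-value below 0.05, from limma, when old and young kidneys were compared over all genes tested. Of the 9 genes, 7 were called, 6 of them lower and 1 higher in old kidneys, while 59.7% of the 12667 genes tested were called, 30.5% lower and 29.2% higher. The called genes with a lower level were Slc22a12, Slc22a6, Slco1a1, Slco1a6, Slc22a8 and Slc47a1, and the gene with a higher level was Slc22a2. The libraries of the 2 ages did not overlap in 4 of the 9 genes (Slc22a6, Slc22a12 and Slc47a1 lower, Slc22a2 higher), against 49% of all genes tested (25.7% lower and 23.3% higher). With a change of at least 1.5-fold, 4 of the 9 genes were called (Slc22a12, Slc22a6 and Slco1a1 lower, Slc22a2 higher), against 45.1% of all genes tested (23.6% lower and 21.6% higher). The median log2 fold change of the 9 genes was -0.38 and their median size was 0.58, beside a median of -0.00 and a median size of 0.56 over all genes tested. The shares with a change of at least 1.5-fold or without overlap and the median size were close to those of all genes, while more of the calls were lower than over all genes. Since the RNA came from whole kidney, fewer cells with a transcript and less of the transcript per cell cannot be told apart.

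**Figure D1:**
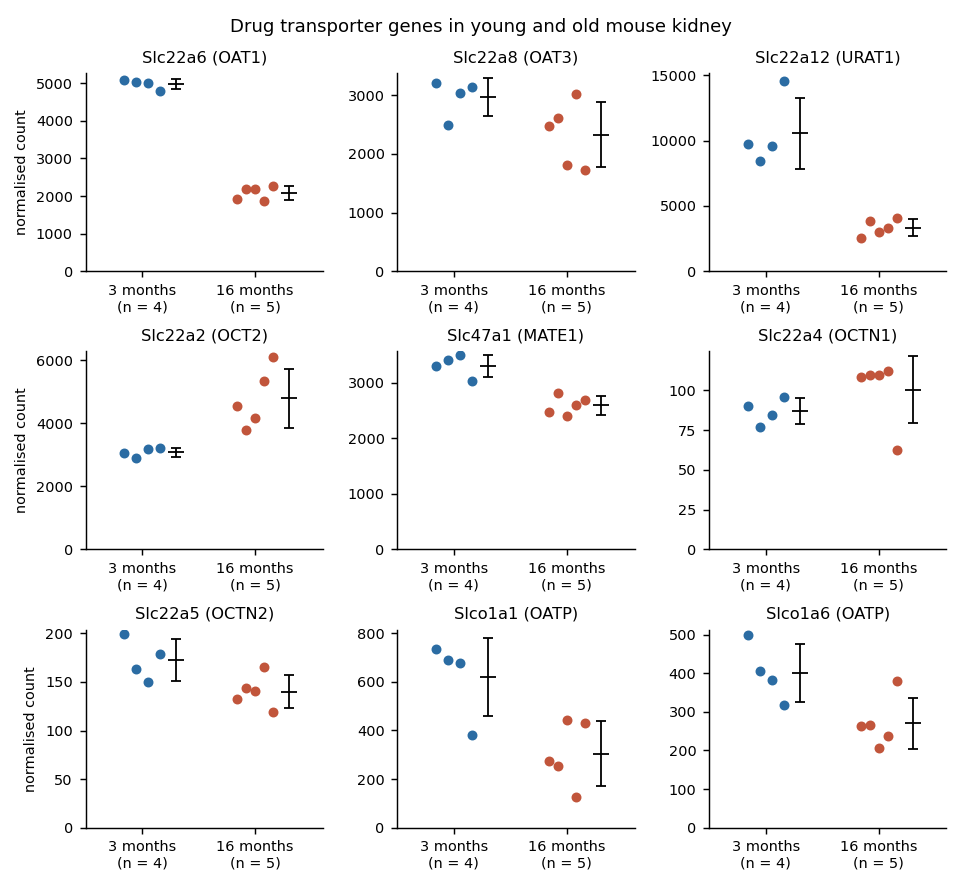
Normalised counts (linear axes from 0) of the 9 transporter genes in each young (blue, 3 months) and old (red, 16 months) kidney library, with the mean and SD of each age beside the points. Points of the 2 ages are separate for Slc22a6, Slc22a12, Slc22a2 and Slc47a1 and overlap for the other 5 genes.

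Slc22a6, which encodes OAT1, the basolateral exchanger that takes up para-aminohippurate, diuretics and antiviral nucleotides, was lower in every old library than in any young one. It stood at 5071, 5035, 5004 and 4789 normalised counts in the young kidneys and at 1928, 2198, 2181, 1863 and 2274 in the old kidneys. The ages were far apart, with the lowest young library above the highest old one. The means were 4975 ± 127 (SD, n = 4) and 2089 ± 181 (SD, n = 5), a 2.39-fold lower level in old kidneys. The log2 fold change was -1.26 ± 0.09 (SE) with an adjusted p of 1.44e-09 (limma), and 84.6% of all genes tested changed less.

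Slc22a8, which encodes OAT3, a basolateral exchanger with a broader range of anions including sulphated steroids, fell less and with overlap. The young kidneys held 3204, 2495, 3042 and 3140 normalised counts and the old kidneys 2474, 2607, 1811, 3017 and 1721. Old replicates 2 and 4 lay within the young range, and old replicates 3 and 5 were the lowest. In log2 the change was -0.38 ± 0.14 (SE), with an adjusted p of 0.0276 (limma). The call was lost when young replicate 1, 3 or 4 or old replicate 3 or 5 was left out (adjusted p of 0.0643 to 0.0779, limma), and also when libraries were scaled on their non-mitochondrial reads alone (log2 fold change -0.24, adjusted p of 0.145, limma).

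Slc22a6 and Slc22a8 are neighbours. In the GENCODE vM21 annotation of GRCm38, Slc22a8 (chr19:8591254-8611835) and Slc22a6 (chr19:8618039-8628299) lie on the plus strand, 6203 bases apart, with no protein-coding gene between them. The 250 bases before their RefSeq transcript starts are shown here because these neighbours, which share a substrate range, differed in how far they fell. Both are read 5′ to 3′ on the plus strand of GRCm38.p6, at chr19:8617746-8617995 (Slc22a6) and chr19:8592932-8593181 (Slc22a8, inside the gene as GENCODE draws it).
Slc22a6: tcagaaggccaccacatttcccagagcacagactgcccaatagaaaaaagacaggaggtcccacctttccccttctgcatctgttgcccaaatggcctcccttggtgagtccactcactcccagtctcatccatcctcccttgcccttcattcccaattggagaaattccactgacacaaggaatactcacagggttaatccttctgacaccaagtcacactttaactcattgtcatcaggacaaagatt
Slc22a8: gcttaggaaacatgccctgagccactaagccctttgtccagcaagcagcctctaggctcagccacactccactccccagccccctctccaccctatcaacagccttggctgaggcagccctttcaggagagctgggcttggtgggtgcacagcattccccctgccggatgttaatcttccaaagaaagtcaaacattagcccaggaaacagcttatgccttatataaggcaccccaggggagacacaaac
The element CAAAGTCCA, bound by HNF4 proteins, was found on neither strand of these windows or of those of the other 6 transporter genes with an entry, and 0.384% of the 32841 promoters searched held it. Slc47a1 had no entry. The bases just after the RefSeq start were found in a GENCODE transcript of the same gene for 4 of the 8 genes with an entry. Slc22a8 was among them and Slc22a6 was not, so the Slc22a6 start differs between the annotations. The search describes letters in a window and not binding.

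The share of Slc22a6 relative to Slc22a8 was compared within each library, since a ratio within a library does not depend on its scaling. The log2 ratio was 0.66, 1.01, 0.72 and 0.61 in the young kidneys and -0.36, -0.25, 0.27, -0.70 and 0.40 in the old kidneys. All young ratios were above all old ratios. The mean ratio, taken on the log2 scale, moved from 1.68 reads of Slc22a6 per read of Slc22a8 to 0.916, a difference of -0.88 ± 0.22 (SE) in log2, with p = 0.0159 (exact two-sided permutation test, n = 4 and 5, the smallest p this design allows) and an adjusted p of 0.0265 over the 5 ratios tested (permutation). With any young library left out the adjusted p was 0.0595 (permutation), from an exact p at the smallest value that 3 against 5 libraries allow, and the same held for the other ratios with this p.

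Slc13a3, which encodes the basolateral sodium-dicarboxylate carrier NaDC3 that supplies the exchange substrate of OAT1 and OAT3, also fell, by 0.73 ± 0.10 (SE) in log2 (adjusted p of 2.83e-06, limma). Slc22a6 fell more than Slc13a3. The log2 ratio of Slc22a6 to Slc13a3 was 0.89 to 1.19 in young and 0.18 to 0.69 in old kidneys, without overlap. The difference was -0.53 ± 0.12 (SE), with p = 0.0159 and an adjusted p of 0.0265 (exact two-sided permutation test, n = 4 and 5).

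Slc22a12, which encodes URAT1, the apical exchanger that takes urate back from the filtrate, had the largest change of the 9 genes. It stood at 9713, 8440, 9575 and 14544 normalised counts in the young kidneys and at 2537, 3832, 2970, 3271 and 4091 in the old kidneys. The lowest young value was above the highest old value, and young replicate 4 was high among the young. The means were 10568 ± 2711 (SD, n = 4) and 3340 ± 631 (SD, n = 5), a 3.14-fold lower level in old kidneys. The log2 fold change was -1.65 ± 0.15 (SE) with an adjusted p of 3.36e-08 (limma). It was -1.49 without young replicate 4, and 92.0% of all genes tested changed less. Slc22a12 (GRCm38, chr19:6535845-6543032, minus strand) overlaps Nrxn2 on the opposite strand, and reads were counted by strand.

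The genes whose profile over the 9 libraries was most like that of Slc22a12 were searched among the 8150 tested genes whose mean reached 50 normalised counts, by the root mean square difference of centred log2 levels. The nearest was Cideb, a lipid droplet and lipoprotein gene, with a difference of 0.15 and a log2 fold change of -1.70. Ccnc, which encodes the cyclin C subunit of the Mediator kinase module, followed with 0.18 and -1.67, and Gnpda1, a glucosamine-6-phosphate deaminase gene, with 0.19 and -1.63. Because levels were centred over both ages together, the age change dominates this difference. The nearest genes were therefore bound to have a similar fold change.

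Of 5 other genes of urate transport or production, 3 were called lower, 1 higher and 1 was not called, beside 59.7% of all genes called. Slc2a9, which encodes the urate carrier GLUT9, averaged 132 ± 18.1 normalised counts (SD, n = 4) in young and 38.9 ± 7.49 (SD, n = 5) in old kidneys, and fell by 1.76 ± 0.18 (SE) in log2 (adjusted p of 1.31e-07, limma). The apical phosphate and anion transporter genes Slc17a1 and Slc17a3 fell by 0.99 and 0.72 in log2. Abcg2, an apical pump that exports urate, rose by 0.60 ± 0.09 (SE; adjusted p of 2.62e-05, limma), with all old libraries (1664 to 1846 normalised counts) above all young ones (972 to 1281). Xdh, which encodes the xanthine dehydrogenase that forms urate, was at 0.22 in log2 with an adjusted p of 0.221 (limma), and at -0.18 once a trend on transcript length was removed.

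Slc22a2, which encodes OCT2, the basolateral entry route for organic cations such as metformin and creatinine, was the only one of the 9 genes called higher. The young kidneys held 3077, 2894, 3173 and 3218 normalised counts and the old kidneys 4552, 3795, 4185, 5361 and 6123. All old libraries were above all young ones, and the old libraries were more spread (coefficient of variation 19.5% against 4.66%). The means were 3090 ± 144 (SD, n = 4) and 4803 ± 937 (SD, n = 5). The log2 fold change was 0.62 ± 0.12 (SE), 1.53-fold, with an adjusted p of 2.26e-04 (limma).

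Slc47a1, which encodes MATE1, the apical exchanger that passes organic cations to the urine against protons, moved the opposite way. It stood at 3289, 3402, 3488 and 3022 normalised counts in the young kidneys and at 2463, 2818, 2390, 2603 and 2689 in the old kidneys, without overlap. This was a log2 fold change of -0.35 ± 0.09 (SE), with an adjusted p of 0.00244 (limma). Slc47a1 lies on chromosome 11 (GRCm38, chr11:61343401-61378345, minus strand).

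The ratio of the cation entry gene to the exit gene was also taken within each library. The log2 ratio of Slc22a2 to Slc47a1 was -0.10, -0.23, -0.14 and 0.09 in the young kidneys and 0.89, 0.43, 0.81, 1.04 and 1.19 in the old kidneys. Reads of Slc22a2 per read of Slc47a1 went from 0.937 to 1.83 on average. The difference was 0.96 ± 0.15 (SE) in log2, with no overlap, p = 0.0159 and an adjusted p of 0.0265 (exact two-sided permutation test, n = 4 and 5).

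**Figure D2:**
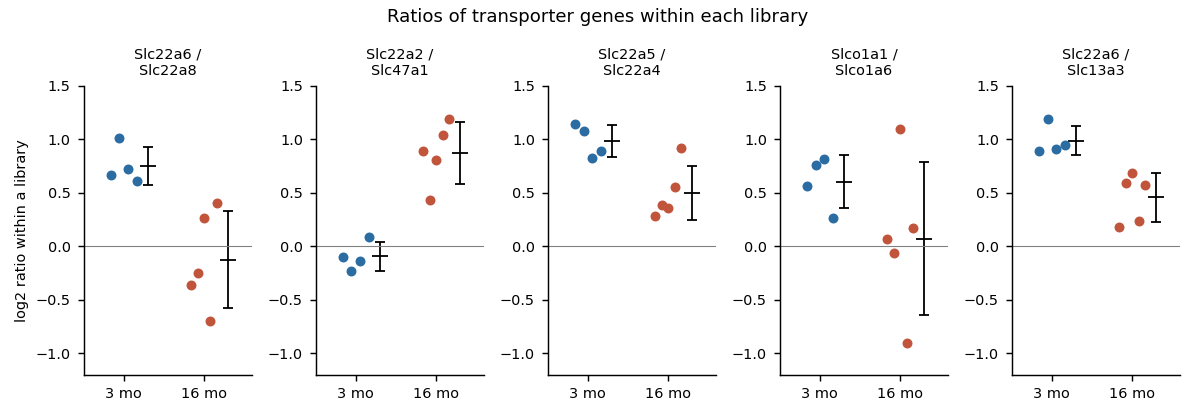
Log2 ratio of a pair of genes within each young (blue) and old (red) library, with the mean and SD of each age beside the points, for the 5 pairs tested. The ages are separate for Slc22a6/Slc22a8, Slc22a2/Slc47a1 and Slc22a6/Slc13a3, and overlap for Slc22a5/Slc22a4 and Slco1a1/Slco1a6.

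Slc22a2 lies on chromosome 17 (GRCm38, chr17:12584132-12628488, plus strand). Slc22a3, which encodes the organic cation transporter OCT3, did not pass the filter, with at most 5.83 normalised counts in young libraries and 5.30 to 29.4 in old ones.

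Slc22a5 (GRCm38, chr11:53864542-53891660) and Slc22a4 (chr11:53983123-54028090), neighbours on the minus strand 91462 bases apart, were not called. Slc22a5 encodes OCTN2, the sodium-coupled transporter that recovers carnitine from the filtrate. It stood at 200, 163, 150 and 178 normalised counts in the young kidneys and at 132, 143, 141, 165 and 119 in the old kidneys. Old replicate 4 reached into the young range. Its log2 fold change was -0.30 ± 0.13 (SE), with an adjusted p of 0.0536 (limma), and it was called under 4 of 21 alternatives, with adjusted p-values between 0.0266 and 0.3 over all of them (limma and the other tools).

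Slc22a4, which encodes OCTN1, a transporter of ergothioneine, stood at 90.1, 76.8, 84.3 and 96.0 normalised counts in the young kidneys and at 108, 109, 110, 112 and 62.6 in the old kidneys. Of the old libraries, 4 were above every young one, and old replicate 5 was below every young one. Over all 9 libraries the log2 fold change was 0.18 ± 0.17 (SE), with an adjusted p of 0.384 (limma). Without old replicate 5 it was 0.34 with an adjusted p of 0.0405 (limma). The Slc22a5 to Slc22a4 log2 ratio was 0.82 to 1.14 in young and 0.28 to 0.91 in old kidneys, a difference of -0.48 ± 0.14 (SE) with p = 0.0476 and an adjusted p of 0.0595 (exact two-sided permutation test, n = 4 and 5). In the GENCODE transcripts 34.5% of the 50-base sequences in the last 500 bases of Slc22a5, and 4.66% of those of Slc22a4, also occur in another gene, among them Slc22a21, which lies between them, so reads could be split between these genes and their counts are uncertain.

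Of 6 other genes of carnitine use that were tested, 2 were called higher, 2 lower and 2 were not called, beside 59.7% of all genes called. Slc16a9, which encodes a carnitine efflux carrier, rose by 1.13 ± 0.11 (SE) in log2, with 320 ± 21.1 normalised counts (SD, n = 4) in young and 707 ± 93.8 (SD, n = 5) in old kidneys. Slc25a20, which encodes the carnitine-acylcarnitine carrier of the inner mitochondrial membrane, fell by 1.49 ± 0.14 (SE). Of the carnitine palmitoyltransferase genes, Cpt1a of the outer membrane rose by 0.64 and Cpt2 of the inner membrane fell by 0.30. The call of Cpt2 was lost under 6 of 21 alternatives. Crat, which encodes carnitine acetyltransferase, was at 0.12 with an adjusted p of 0.503 (limma). Aldh9a1, a gene of carnitine synthesis, was at 0.01 with an adjusted p of 0.955 (limma) and took the opposite sign under 5 alternatives.

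Slco1a1 encodes a transporter of sulphated and glucuronidated steroids and bile acids in the apical membrane of the mouse proximal tubule, and lies at chr6:141907282-141946962 (GRCm38, minus strand). It stood at 736, 689, 676 and 383 normalised counts in the young kidneys and at 276, 253, 442, 126 and 429 in the old kidneys. Young replicate 4 was below old replicates 3 and 5, and old replicate 4 was the lowest of all. The means were 621 ± 161 (SD, n = 4) and 305 ± 132 (SD, n = 5). The log2 fold change was -1.11 ± 0.27 (SE), 2.16-fold lower in old kidneys, with an adjusted p of 0.00166 (limma).

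Slco1a6, a close relative on the same strand (chr6:142085761-142208521), stood at 498, 406, 382 and 318 normalised counts in the young kidneys and at 263, 265, 207, 237 and 381 in the old kidneys. Old replicate 5 was above young replicate 4 and the other old libraries were below every young one. The log2 fold change was -0.58 ± 0.15 (SE), with an adjusted p of 0.00336 (limma). The Slco1a1 to Slco1a6 log2 ratio was 0.27 to 0.82 in young kidneys and spread from -0.91 to 1.09 in old kidneys, so that both ends of the range were old libraries (difference -0.53 ± 0.34 SE, p = 0.190, exact two-sided permutation test, n = 4 and 5). Of the 50-base sequences in the last 500 bases of Slco1a6, 13.1% occur in another gene, so its count is uncertain, and no such sequence was found for Slco1a1.

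The coefficient of variation was larger in old than in young libraries in 7 of the 9 genes, as in 73.4% of all genes tested, and was widest for Slco1a1 (43.3% in old, 25.9% in young). Slc22a6 (2.55%), Slc22a2 (4.66%) and Slc47a1 (6.14%) varied least among young kidneys. Slc22a5 (12.4% in young, 12.1% in old) and Slc22a12 (25.7% and 18.9%) were the exceptions. No test of these spreads was made.

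Of the other Slc22a, Slco and Slc47a genes, 19 rows of the table were used and 17 passed the filter. Among the 17, 4 were called higher, 10 lower and 3 were not called, beside 29.2% higher and 30.5% lower over all genes tested. Their median log2 fold change was -0.79. The largest decreases were in Slc22a19 (-2.38 ± 0.22 SE), a kidney organic anion transporter gene, Slc22a7 (-1.96 ± 0.38), which encodes OAT2, and Slc22a22 (-1.44 ± 0.14), which encodes a prostaglandin-specific organic anion transporter. Slc22a19 had 336 to 434 normalised counts in young libraries and 41.6 to 112 in old ones, and Slc22a7 had 264 to 432 in young and 22.4 to 191 in old ones. Slc22a13, which encodes the urate and nicotinate transporter OAT10, fell by 1.38. Slc22a18, the gene with the most reads of the 17, fell by 49.96%, from 2167 to 2514 normalised counts in young libraries to 896.5 to 1390 in old ones. Slc22a26 fell by 0.96, Slc22a28 by 0.91, Slco3a1 by 0.86, Slco2a1, which encodes a prostaglandin transporter, by 0.79 and Slc22a17 by 0.41, and the call of Slc22a17 was lost under 4 of 21 alternatives. The genes called higher were Slc22a21 (1.10), Slc22a29 (1.01), Slco4c1 (0.99), which encodes a basolateral transporter of digoxin and thyroid hormone, and Slco2b1 (0.53). Slc22a21 and Slc22a29 had at most 24.3 normalised counts in any library. Slc22a21 reached the 10 normalised counts of the filter in old libraries only, so that it was tested through the group where it is high. Slc22a29 reached them in every old library but not in every young one (4.10 to 12.7 in young), so that it also passed through its old libraries. The call of Slc22a29 was lost under 1 alternative. Slc22a30 (0.25, adjusted p of 0.0576), Slc22a23 (0.02, adjusted p of 0.926) and Slco4a1 (-0.74, adjusted p of 0.156) were not called (limma), and Slc22a30 was called under 5 alternatives and Slco4a1 under 1, while Slc22a23 took the opposite sign under 5. Slco4a1 was at 72.0 normalised counts in old replicate 3, above every young library, and without that library its log2 fold change was -1.24 (adjusted p of 0.00161, limma). Slc22a15 and Slc22a3 did not pass the filter.

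**Figure D3:**
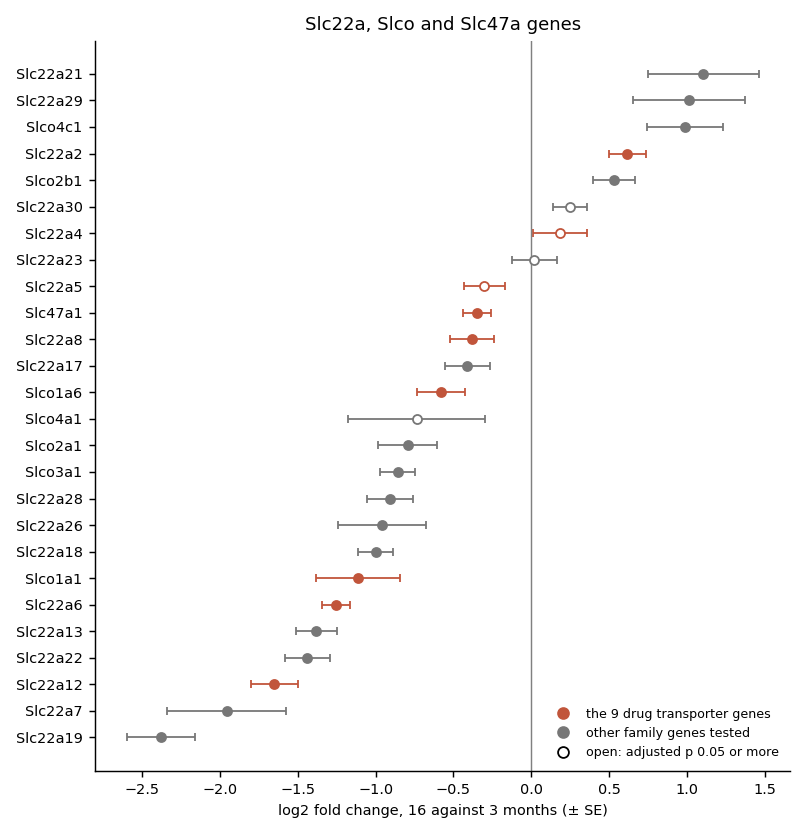
Log2 fold change (old against young, ± SE) of the 9 transporter genes (red) and of the 17 other Slc22a and Slco genes used (grey), ordered by value, with open circles for an adjusted p of 0.05 or more. Slc22a2 is the only red gene called above 0, and Slc22a19 (-2.38) marks the low end of the order. Slc22a21, at the high end, passed the filter through its old libraries alone.

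On the apical side, the 7 efflux genes tested were all called, 5 higher and 2 lower, beside 59.7% of all genes tested, and in 6 of them the ages did not overlap, beside 49% of all genes. All 5 ABC pump genes were higher in old kidneys. Abcc4, which encodes the MRP4 pump for organic anions and cyclic nucleotides, rose by 1.65 ± 0.25 (SE), from 91.7, 59.3, 84.3 and 62.5 normalised counts in young to 243, 224, 263, 415 and 111 in old kidneys. The P-glycoprotein genes Abcb1b (1.40) and Abcb1a (1.02) rose from low levels (5.88 to 14.7 and 3.62 to 14.7 normalised counts in young libraries). Both passed the filter of 10 normalised counts in 4 libraries through the old group, where they are high, so their calls add little to the count of pumps. The call of Abcb1a was lost under 6 of 20 alternatives. Abcg2 (0.60) and Abcc2 (0.41, encoding MRP2) were the others, and the change of Abcc2 was -0.01 once a trend on transcript length was removed. The genes called lower were Slc17a1 and Slc17a3, given above.

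Among genes that maintain the gradients behind these exchangers, Slc9a3, which encodes the apical sodium-proton exchanger NHE3, rose by 1.75 ± 0.18 (SE) in log2. Atp1b1, which encodes a beta subunit of the sodium pump, rose by 0.57. Slc13a2, which encodes the apical dicarboxylate carrier, was at -0.06 with an adjusted p of 0.756 (limma) and took the opposite sign under 4 alternatives, among them the non-mitochondrial scaling, where it stayed below the median of all genes. Of 4 genes for scaffold proteins that hold apical transporters in place, Slc9a3r2 (0.51) was called higher and Slc9a3r1 (-0.53) and Pdzk1 (-0.24) lower, beside 59.7% of all genes called. Pdzk1ip1 was at 0.02 with an adjusted p of 0.874 (limma) and took the opposite sign under 3 alternatives and was called higher under 1, at 0.40 once the trend with transcript length was removed, and the call of Pdzk1 was lost under 6 of 21 alternatives.

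**Figure D4:**
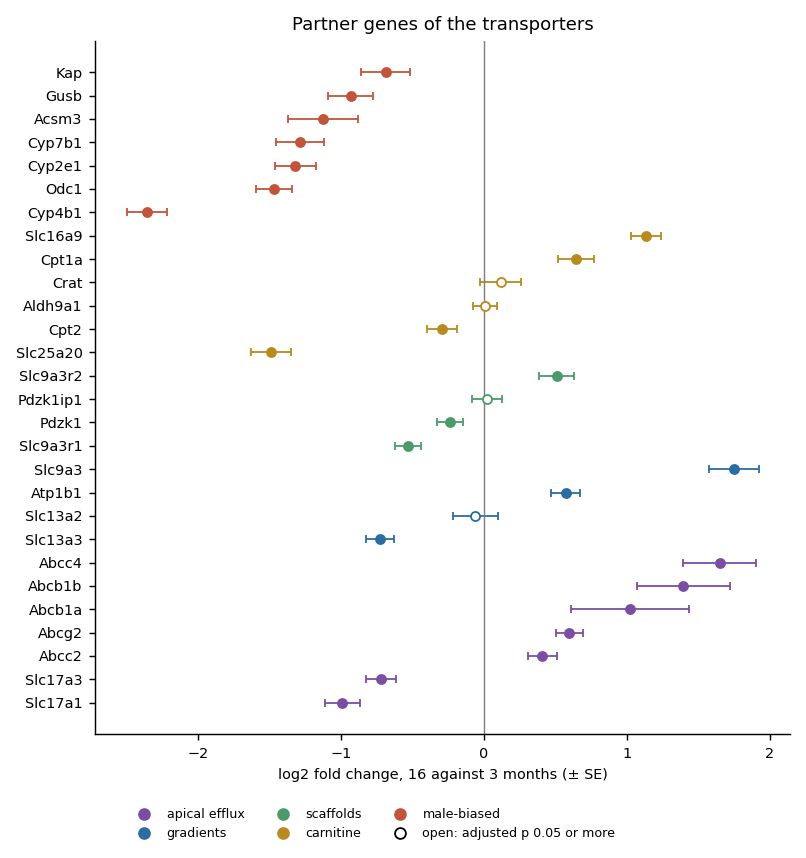
Log2 fold change (old against young, ± SE) of genes that work with the transporters, coloured by list, with open circles for an adjusted p of 0.05 or more. The 5 ABC pump genes are above 0, Slc17a1 and Slc17a3 are below it, and the 7 male-biased genes are all below it. Abcb1a and Abcb1b passed the filter through their old libraries.

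Of 11 regulators of transporter genes that were tested, 4 were called higher, 3 lower and 4 were not called, a share close to the 59.7% of all genes tested. Hnf4a, a nuclear receptor gene active in the proximal tubule, fell by 0.93 ± 0.10 (SE) in log2, from 1708 to 2074 normalised counts in young libraries to 879 to 1116 in old ones (adjusted p of 2.39e-07, limma). Ppara, the fatty acid sensor gene, rose most (2.33 ± 0.11 SE), followed by the prolactin receptor gene Prlr (1.84), the xenobiotic receptor gene Nr1i2 (0.87) and Nfe2l2 (0.84), which encodes the oxidative stress factor NRF2. Ghr, which encodes the growth hormone receptor, fell by 0.35 and Rxra by 0.35. The calls of Nr1i2, Rxra and Ghr were lost under 4, 2 and 1 of the alternatives. The genes not called were Ahr, Bcl6, Esr1 and Stat5b, with log2 fold changes of -0.09, -0.69, -0.08 and -0.35 and adjusted p-values of 0.0722 to 0.821 (limma). Ahr and Esr1 took the opposite sign under 5 and 3 alternatives, among them the non-mitochondrial scaling, where both stayed below the median of all genes, and Stat5b was called under 2. Bcl6, at 440.2 normalised counts in young replicate 2 and 316.4 in old replicate 3, spread widely within both groups, and its log2 fold change ranged from -1.22 without old replicate 3 to -0.051 without young replicate 2.

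Transcripts known to be androgen-responsive or higher in male kidneys were measured beside the transporter genes. All 7 listed were called lower, beside 30.5% of all genes tested, and in 6 of them the ages did not overlap, beside 25.7% of all genes that were lower without overlap, but Kap was at -0.28 with an adjusted p of 0.138 (limma) once the trend on transcript length was removed. Cyp4b1 fell by 2.36 ± 0.14 (SE), Odc1 by 1.47, Cyp2e1 by 1.32, Cyp7b1 by 1.29, Acsm3 by 1.13, Gusb by 0.93 and Kap by 0.69. Their summed level, most of it from Kap, was 157773 to 195778 normalised counts in young and 88979 to 128856 in old libraries. Of 3 female-biased genes, Slc7a12 and Prlr were called higher and Akr1c18 lower, beside 29.2% higher and 30.5% lower over all genes tested. Slc7a12 had 0 to 9.96 normalised counts in young and 11.2 to 37.3 in old libraries, and Akr1c18 had 62.2 to 206 in young and 0 to 3.73 in old libraries, so each passed the filter only through the group where it is high. The fitted log2 fold change of Slc7a12 (3.18) depended on the pseudocount, from 1.96 to 4.87. Y-linked genes had reads in all 9 libraries, with sums of 311 to 355 in young and 394 to 510 in old. Among them Kdm5d (1.43), Ddx3y (0.43) and Uty (0.42) were called higher, beside 29.2% of all genes tested. The calls of Ddx3y and Uty were lost under 2 and 1 of the alternatives. Eif2s3y was at -0.39 (adjusted p of 0.131, limma) and was called lower, at -0.51, without old replicate 2. The part of androgen action, or of the sex of the mice, in the transporter values was not tested.

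Markers of tubule segments and other cell types also differed by age. Over all genes tested, 59.7% were called (29.2% higher and 30.5% lower), and 49% did not overlap between the ages. With so many genes called, the counts of markers given here do not by themselves mark a cell type as changed. The late proximal tubule markers Slc7a13 and Atp11a summed to 5874 to 6872 normalised counts in young and 2579 to 3592 in old libraries, and both were lower. The early proximal tubule markers Slc5a2 (lower) and Slc5a12 (higher) summed to 1620 to 1832 in young and 1885 to 2872 in old libraries. Sums of thick ascending limb (1 of 3 markers higher), distal convoluted tubule (2 of 3 higher, 1 lower), endothelial (3 of 5 higher) and lymphocyte and plasma cell markers (3 of the 4 listed in the table higher) were higher in old libraries without overlap, and that of intercalated cells (1 of 4 higher, 3 lower) was lower. Lymphocyte and plasma cell markers went from 243 to 700 in young to 922 to 3234 in old libraries. Sums of principal cell (4 of 5 markers lower), podocyte (3 of 4 higher, 1 lower), macrophage (2 of 5 higher, 1 lower), fibroblast and pericyte (2 of 3 lower) and adipocyte markers (1 of the 2 tested lower) overlapped between the ages. Adgre1, a macrophage marker called higher, was below 10 normalised counts in every young library (5.43 to 9.83). Nphs1, a podocyte marker called higher, had 8.75 to 15.7 in young and 35.5 to 67.2 in old libraries. Adgre1 and Nphs1 thus passed the filter through the old group, where they are high. Aqp2, a principal cell marker, had 2267 normalised counts in old replicate 3, against 334 to 694 for the rest of the old group. The adipocyte markers stood highest in young replicate 2 (Adipoq 40.8, Plin1 42.8 and Fabp4 896.8) and old replicate 3 (Adipoq 188.6, Plin1 135.9 and Fabp4 423.9). In those libraries Slc22a8 was the lowest of the young (2495) and the second lowest of the old (1811), and Bcl6 was the highest of each age. No listed marker in the table was at 0 in every library, and the part of these cell types in the transporter values was not tested. Relative to the mean of the 16 proximal tubule markers, the direction of all 9 transporter genes was as given above.

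The signs of the 9 genes held under every alternative in which they were tested. Scaling the libraries on their non-mitochondrial reads alone moved the median log2 fold change of all genes from -0.00 to 0.13. Relative to that median, the log2 fold changes were 0.62 for Slc22a2, -1.25 for Slc22a6, -1.64 for Slc22a12, -1.10 for Slco1a1, -0.57 for Slco1a6, -0.37 for Slc22a8, -0.34 for Slc47a1, -0.30 for Slc22a5 and 0.19 for Slc22a4.

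**Figure D5:**
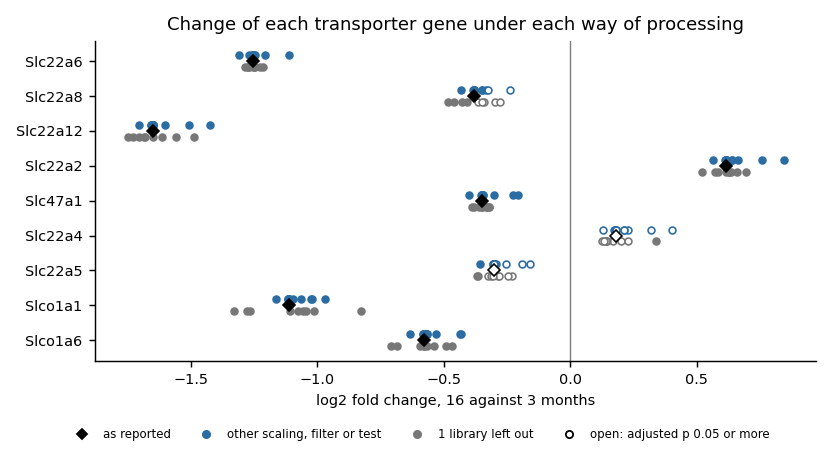
Log2 fold change of each transporter gene as reported (black diamond), under another scaling, filter or test (blue) and with 1 library left out (grey), with open symbols for an adjusted p of 0.05 or more. No gene crosses 0. Slc22a8, Slc22a5 and Slc22a4 have both filled and open symbols, and the other 6 genes are called throughout.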

How the data were processed

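RNA from 4 young and 5 old wild-type mouse kidneys was sequenced from 3′ ends. The deposited values are a signal that the authors made by aligning reads to GRCm39 (TopHat2 2.0.10, Bowtie 1.0.0 and SAMtools 0.1.19 in the submitters' processing notes), counting them by strand with HTSeq 0.6.1 on GENCODE vM26, and dividing by a size factor per library. Within a tolerance of 0.01, 100% of the values were whole multiples of 1 read, so whole reads were recovered. The lowest mean of a listed gene was 4.49, so rarer genes were left out before deposition. Depth was 4486406 to 6355095 reads per library, and 3 reads correspond to 2.46 to 3.54 normalised counts. Counting error alone is covered by such a floor. The labels and the study's methods name different kit versions.

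Groups came from the labelled age. The test was limma 3.58.1 (R 4.3.3, eBayes with a trend) on log2(normalised count + 1), which understates the change of low genes, for the 12667 genes that reached 10 normalised counts in 4 or more libraries, adjusted by Benjamini-Hochberg. On the recovered reads edgeR 4.0.16 called 7649 and DESeq2 1.42.0 called 7532 genes, against 7568 with limma. Ratios were tested over libraries with an exact permutation test (scipy 1.17.1). The limma script was tested on simulated data. Other alternatives were pseudocounts of 0.1 and 5, no filter, a mean of at least 100, TMM factors, table totals, non-mitochondrial totals, a shift to proximal tubule markers, robust eBayes, a length trend removed by lowess, thinning for ratios, and each library left out.

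The transporter genes, lists and tests were chosen with earlier results of these data known. Genes named besides the 9 were, by rule, the called genes with the 3 largest changes in each list, genes that small counts rest on, sex-chromosome genes and the 3 genes most like the member that changed most. Remaining named genes of the lists were added after their values were seen. Xist, Bbox1, Tmlhe and Nr1i3 were on the lists but not among the rows analysed here. A few genes of these lists are not reported here. Positions were taken from GRCm38 (GENCODE vM21) rather than the authors' build, with lengths for 98.3% of genes, and promoters from RefSeq on GRCm38.p6 for 8 of the 9 genes.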

Additional observations from a re-analysis of the deposited data

Results flagged for a closer look

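In 28 groups tested (the values of the 9 transporter genes and of the 5 ratios in each age), 2 held a library far from the others, where chance gives about 1 in 20, or 1.4. Slc22a4 in old replicate 5 had a log2 level of 5.99 against 6.77 to 6.82 in the other old libraries, and the gap was 0.945 of the whole range. Slco1a1 in young replicate 4 had a log2 level of 8.58 against 9.40 to 9.53 in the rest of the young group, and the gap was 0.868 of the range.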

How the results depend on the processing

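No paired analysis was possible because the titles carry no replicate number and the numbers used here only name libraries. Of the 9 transporter genes, 6 to 8 were called over all alternatives, 5 to 7 of them lower, and 1 to 2 were called higher (2 without old replicate 5). Requiring a mean of 100 normalised counts left fewer genes to test, so that 4101 genes were called, 2605 with at least 1.5-fold, 9 of the other Slc22a and Slco genes (14 as reported and 13 to 15 under the remaining alternatives), and 1 female-biased gene. Slc22a4 was not tested there. For the other changes the cause was not tested. Slc22a5 was called at that filter (-0.30) and with table totals (-0.35). Slc22a8 was not called with non-mitochondrial scaling (-0.24) or with the length trend removed (-0.33). That trend also left 1 sex-chromosome gene called and turned the signs of Abcc2 (-0.0079), Xdh (-0.18), Slc13a2 (0.14) and Slc22a23 (-0.27). Non-mitochondrial scaling gave 0.082 for Slc13a2, 0.042 for Ahr and 0.056 for Esr1, all below the median of all genes there (0.13), and Ahr was at 0.014 with edgeR and 0.011 with DESeq2 (medians of 0.017 and 0.018). Table totals gave -0.032 for Pdzk1ip1, -0.035 for Slc22a23 and -0.047 for Aldh9a1, all above the median there (-0.054), so that relative to the median of all genes neither scaling turned a sign. Thinning gave -0.50 for Slc22a5/Slc22a4 (adjusted p of 0.0397, permutation).

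With each library left out in turn, log2 fold changes ranged from 0.12 to 0.34 for Slc22a4, -0.37 to -0.23 for Slc22a5, -0.48 to -0.28 for Slc22a8, -0.14 to 0.062 for Slc13a2, -0.044 to 0.090 for Pdzk1ip1, -0.10 to 0.12 for Slc22a23, -0.018 to 0.057 for Aldh9a1, -0.26 to 0.15 for Ahr and -0.27 to 0.040 for Esr1. Differences in log2 ratio ranged from -1.01 to -0.73 for Slc22a6/Slc22a8, 0.89 to 1.07 for Slc22a2/Slc47a1, -0.59 to -0.46 for Slc22a6/Slc13a3, -0.59 to -0.43 for Slc22a5/Slc22a4 (adjusted p of 0.0357 without old replicate 5, permutation) and -0.79 to -0.29 for Slco1a1/Slco1a6 (0.0357 without old replicate 3, permutation). The first 3 ratios missed the threshold without any 1 young library (0.0595, permutation). Slc22a5 was called without young replicate 3 (adjusted p of 0.0399, limma) or old replicate 4 (0.0266, limma). Slc22a12, Slc22a6, Slc22a2, Slco1a1, Slco1a6 and Slc47a1 were called in the same direction under all 21 alternatives. Depth limits the low genes Slc22a21, Slc22a29, Slc7a12 and Abcb1a, with few reads in young libraries.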

Other observations

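The libraries with the lowest Slco1a1 of each age were young replicate 4 (383 normalised counts, the others 676 to 736) and old replicate 4 (126, the others 253 to 442). Over the whole list of 7 male-biased genes, young replicate 4 was the lowest young library in 6, the exception being Odc1 (4134, with 3409 and 3437 in young replicates 3 and 1), and old replicate 4 was the lowest old library in 6, the exception being Cyp4b1 (2666, with 2044 to 2422 in old replicates 1, 3 and 5). Some of these margins were small, as for Cyp7b1 in young replicate 4 (320, the next 323). Prlr was highest in the same libraries, at 129 against 25.3 to 32.4 in the other young libraries and at 339 against 107 to 145 in the other old libraries, as was Slc7a12 (9.96 and 37.3). Akr1c18 was highest in old replicate 4 but not in young replicate 4. Slc22a6 was also lowest in these libraries, by smaller margins (4789 in young replicate 4, the other young libraries 5004 to 5071, and 1863 in old replicate 4, the other old libraries 1928 to 2274). Slc22a7 was lowest in old replicate 4 (22.4, the others 99.0 to 191) and highest of the young in young replicate 4 (432). Slc22a12 and Slc22a2 were highest among the young in young replicate 4 (14544 and 3218). These library-level patterns were noticed in the data and were not tested.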
